A study of Triticum aestivum with 6 samples.

Results

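Crown tissue of a grass-clump dwarf synthetic wheat, Ldn/KU-2025, was compared with that of a wild-type synthetic wheat, Ldn/KU-2059 (WT). A synthetic hexaploid wheat carries the A and B genomes of its tetraploid parent and the D genome of the wild grass Aegilops tauschii. Both lines were made with the same tetraploid cultivar, Langdon (Ldn), so they share the A and B genomes, including the dominant Vrn-A1 allele for spring growth habit, and differ in the Ae. tauschii accession, KU-2025 or KU-2059. The comparison rests on 4 of the 6 arrays of the series, chosen by line: 2 arrays of Ldn/KU-2025 and 2 of WT, all hybridised on 1 slide. The other 2 arrays hold crt/KU-2025, a second grass-clump dwarf from Triticum carthlicum (crt) and the same KU-2025 accession, on another slide. The plants of all 3 lines were 8 weeks old and had been kept at 24 °C in long days (18 h light, 6 h dark), and the crown samples were shoots with the shoot apical meristem. Each line is a single synthetic hexaploid from 1 Ae. tauschii accession, so differences between accessions at any D-genome gene are part of the comparison. The number of plants behind each array is not given in the sources used here.

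Grass-clump dwarfism is a growth abnormality of some hybrids between tetraploid wheat and Ae. tauschii. Affected plants are short and form many tillers at normal temperature, and the same lines develop necrosis of the leaves in the cold, a condition called type II necrosis. It is ascribed to an interaction of the gene Net1 on the A and B genomes with Net2 on the D genome. The crown lies at the base of the shoot, where the meristem, leaf bases and young tillers are packed together, so a crown sample is a mixture of dividing, expanding and partly green tissue. No set of meristem markers was assigned to probes here, so the labelled tissue was not checked against one. In such bulk RNA, fewer cells of a type and less transcript per cell cannot be told apart. A probe can also bind the A, B and D copies of a gene, so a lower transcript level and a D-genome copy that matches the probe less well cannot be told apart either.

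The array carried 37826 wheat probes. Of these, 77.6% and 76.4% were well above background on the Ldn/KU-2025 arrays, and 75.1% and 75.3% on the WT arrays. No probe was saturated. Signals are given on a scale where the trimmed mean of each array is 2500, on which the median probe lay between 300.1 and 333 on the 4 arrays. The array number limits the precision. Replicate arrays correlated at r = 0.992 for both lines over the log2 signals of all probes, and arrays of different lines at 0.983 to 0.984; these are correlations across probes, which are not independent replicates. The median absolute log2 difference between replicates was 0.0697 in Ldn/KU-2025 and 0.0758 in WT, whereas the median absolute log2 ratio between the lines was 0.232. The crt/KU-2025 arrays, which did not enter the test, correlated with these 4 arrays at 0.871 to 0.914.

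Transcript levels were mostly higher in the dwarf among the probes that changed most. At a difference of at least 3-fold and a limma adjusted p (Benjamini-Hochberg) under 0.05, 529 probes were higher in Ldn/KU-2025 (1.40% of all probes) and 114 were lower (0.301%). Without the fold limit, 6790 probes (18.0%) were higher and 6011 (15.9%) were lower at the same adjusted p. These counts include probes at the floor of the arrays. The lowest scaled signal was 4.786 and 4.793 on the Ldn/KU-2025 arrays, and 5.445 and 5.545 on the WT arrays. MUGEST2003_23lib_Contig14619_1744, not well above background on any array, was thus among the lower probes (limma adjusted p = 0.0462). How many of the 6011 were such probes was not counted. The share of probes that rose was 1.35% below a mean signal of 50, 2.08% from 50 to 200, 1.95% from 200 to 1000, 1.04% from 1000 to 5000 and 0.375% above 5000, and large changes were thus least frequent among the brightest transcripts. Most of these changes kept their size when an array was left out, but none kept its call. After leaving out Ldn/KU-2025 replicate 1, Ldn/KU-2025 replicate 2, WT replicate 1 or WT replicate 2, limma called 0 probes in either direction, with smallest adjusted p = 0.0752, 0.0639, 0.0694 and 0.0722 and with 11898, 11952, 15295 and 13178 probes at an unadjusted p under 0.05. In the same 4 settings all 529 probes stayed higher and all 114 stayed lower, and 504, 506, 509 and 493 of the 529 and 109, 105, 106 and 104 of the 114 remained past 3-fold. With a normexp background correction in place of the scanner's, which pulls dim ratios toward 0 by its offset, limma called 119 rises and 33 falls. The p-values measure the spread between these arrays, which the series describes as 2 independent experiments.

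**Figure D1:**
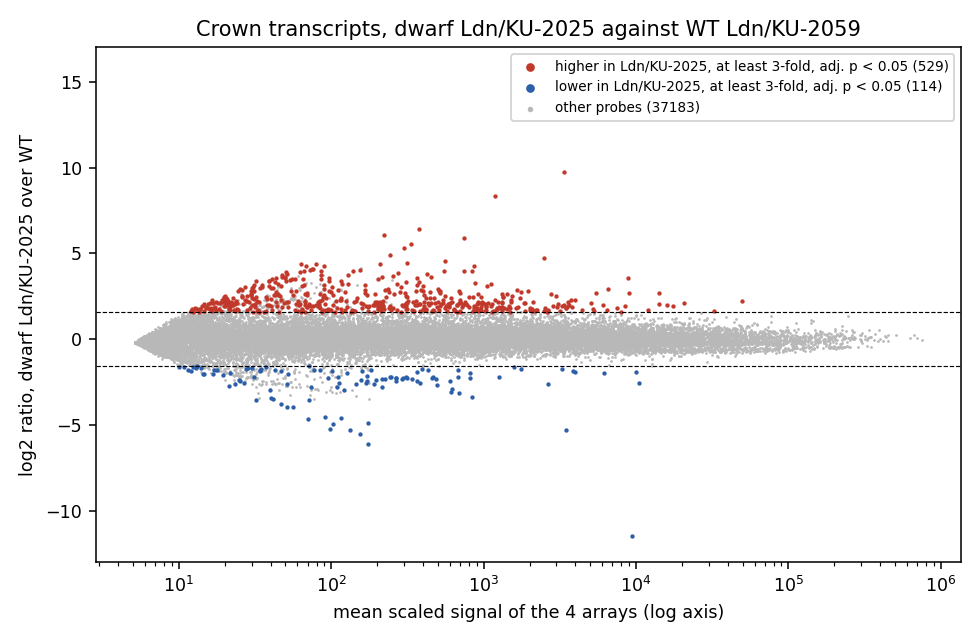
Each point is 1 of 37826 probes, with the mean scaled signal of the 4 arrays on a log x axis and the log2 ratio of dwarf Ldn/KU-2025 over WT on the y axis. Red points are the 529 probes called higher and blue points the 114 called lower in Ldn/KU-2025, and the dashed lines mark 3-fold.

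Of the called probes, 289 rises and 57 falls were measured well above background on all 4 arrays. The largest of these rises was a chlorophyll a/b-binding protein probe, rwhcs20f08_m_664, whose product holds chlorophyll in the light-harvesting antenna. Its signals were 4813 and 4768 in Ldn/KU-2025, against 164 and 199.9 in WT (log2 ratio 4.73 ± 0.12 SE, limma adjusted p = 0.00683). It was followed by wheat0130Contig11508 and wheat0130Contig14853, which have no description here. Their signals were 1429 and 1879.6 in Ldn/KU-2025, against 75.9 and 92.9 in WT, and 1255 and 1528 in Ldn/KU-2025, against 100.5 and 76.8 in WT, with log2 ratios of 4.29 and 3.98. The next was wheat0130Contig2872, again without description, with 1601 and 1530.2 in Ldn/KU-2025, against 104 and 95.6 in WT. The fifth was CP12, a small chloroplast protein that regulates the Calvin cycle, at probe whsh_allContig1137, with 983 and 1083 in Ldn/KU-2025, against 71.4 and 60.5 in WT (log2 ratio 3.97 ± 0.12 SE, limma adjusted p = 0.00721). In each of these 5 probes, picked as the largest rises, both dwarf arrays lay above both WT arrays, as they did in 35.0% of all probes.

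The largest fall with signal on all arrays was at MUGEST2003_23lib_Contig22076_325, described only as a hypothetical protein, with 169 and 179.6 in Ldn/KU-2025, against 6905 and 6709.6 in WT (log2 ratio −5.29 ± 0.052 SE, limma adjusted p = 0.00583). In crt/KU-2025 this probe was at 9.45 and 14.5 and not well above background. Probe MUGEST2003_23lib_Contig11601_205, whose description reads only glutathione, cytosolic, had 159 and 139 in Ldn/KU-2025, against 1504 and 1543 in WT (log2 ratio −3.35). Unlike the previous probe it stood at 1363 and 1163 on the crt/KU-2025 arrays, near the WT signals. The remaining falls of this set were MUGEST2003_23lib_Contig8755_p_242 (log2 ratio −3.14), MUGEST2003_23lib_Contig6793_664 (−3.08) and wheat0130Contig1396 (−2.88), none with a named product. The dwarf replicates of MUGEST2003_23lib_Contig8755_p_242 were the least alike of these, at 196.8 and 99.4, both far below the WT signals of 1159 and 1304.

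Some transcripts were measured in only 1 of the lines. In all, 582 probes (1.54%) were well above background on both Ldn/KU-2025 arrays and on neither WT array, and 102 (0.270%) showed the opposite pattern. Of these, 181 were among the called rises and 33 among the called falls. The dimmest signal well above background was 23.93 and 24.16 on the Ldn/KU-2025 arrays, and 27.43 and 27.86 on the WT arrays. A dim probe could thus be flagged more readily in Ldn/KU-2025. How many of the 582 and the 102 probes rest on this was not tested. For such probes only a lower bound of the fold change is available, computed against a floor on each dim array, namely the dimmest signal well above background there, or the probe itself where brighter, in which case it equals the measured fold. The median bound was 1.47-fold over the 582 probes and 1.87-fold over the 102, so most of them were dim, and the bound reached 3-fold for 77 of the 181 called rises and 18 of the 33 called falls.

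A few were bright. Probe rwhei10o03_351, described as an L-type lectin-domain receptor kinase, a class of cell-surface receptor, had 6617 and 6742 in Ldn/KU-2025, against 7.83 and 7.94 in WT, at least 242-fold higher in the dwarf (limma adjusted p = 0.00232). A urease accessory protein G, which helps load nickel into urease, had 2377 and 2336 in Ldn/KU-2025, against 5.62 and 9.78 in WT at wheat0130Contig5054, at least 85.2-fold higher. An inactive purple acid phosphatase 27 (wheat0130Contig8370), of a family whose active members release phosphate, was at least 52.98-fold higher, with 1438 and 1492 in Ldn/KU-2025, against 26.2 and 23.7 in WT. The enzyme that makes the precursor of proline, delta-1-pyrroline-5-carboxylate synthetase (wheat0130Contig3861), had 724 and 769 in Ldn/KU-2025, against 8.76 and 8.91 in WT, a rise of at least 26.99-fold. The last of these 5 was ncbi_gi_32129129_317, whose only description is a fungal sequence match, at least 23.5-fold higher in the dwarf. The first 4 probes were also well above background on both crt/KU-2025 arrays, at 21665 and 11193, 3134 and 2591, 758 and 485, and 1121 and 1097.

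In the opposite direction, wheat0130Contig9191, a probe for a hypothetical protein, had 6.69 and 6.74 in Ldn/KU-2025, against 18116 and 19419 in WT, at least 780.0-fold lower in the dwarf (limma adjusted p = 0.00232). It was among the bright probes in WT and not well above background in the dwarf. On the crt/KU-2025 arrays, which share the KU-2025 parent, it was at 7.90 and 7.25. The other 4 probes with the largest bounds, MUGEST2003_23lib_Contig18680_397, wheat0130Contig6661, rwhok10f04_797 and whsh_allContig80, had WT signals between 243 and 351 and dwarf signals between 5.04 and 13.7, at least 14.4-fold, 14.1-fold, 12.6-fold and 10.69-fold lower. None of these has a description that names a function, and all 4 were not well above background on either crt/KU-2025 array. Over the whole array, 368 of the 582 probes measured only in Ldn/KU-2025 were well above background on both crt/KU-2025 arrays and 124 on neither. Of the 102 measured only in WT, 33 were above background on both crt/KU-2025 arrays and 56 on neither. Of all probes, 73.8% were above background on both of those arrays and 21.9% on neither.

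**Figure D2:**
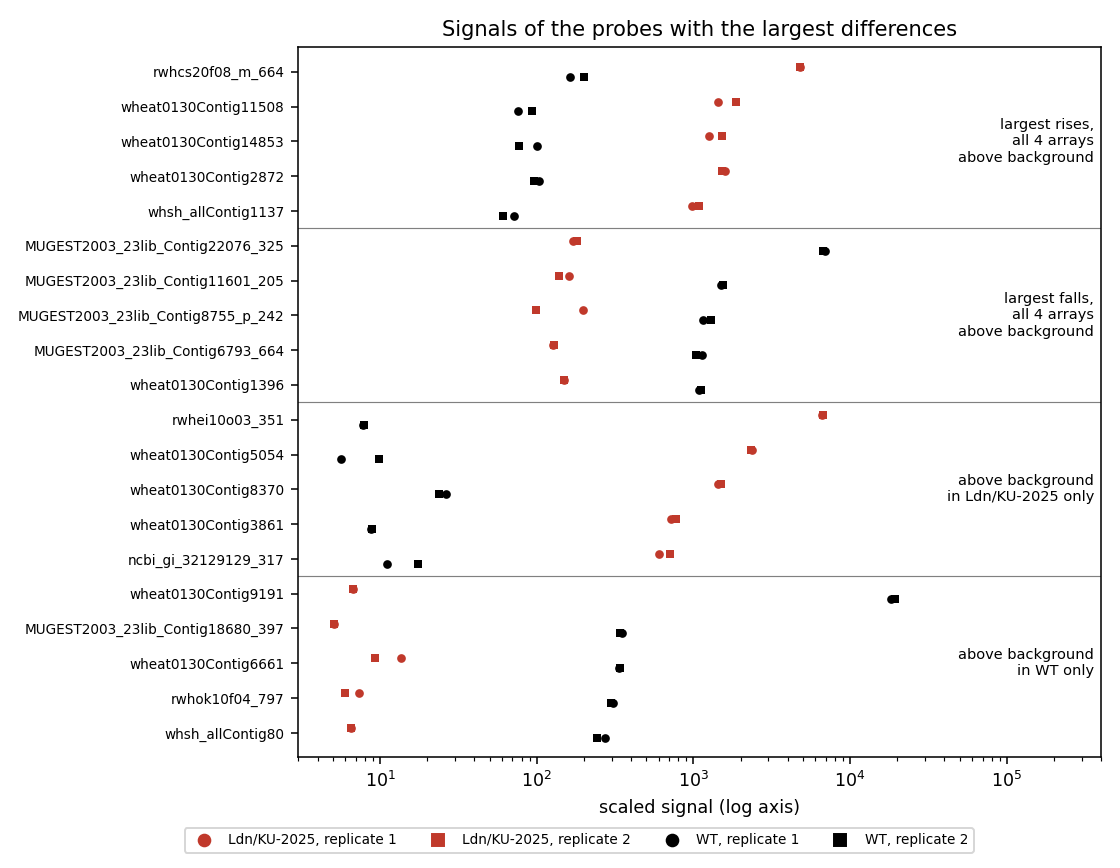
Scaled signal on a log x axis of the 20 probes with the largest differences, 5 in each of 4 classes, with Ldn/KU-2025 arrays in red above WT arrays in black, circles for replicate 1 and squares for replicate 2. In every probe the 2 arrays of a line lie closer to each other than to the other line, from rwhcs20f08_m_664 at the top to whsh_allContig80 at the bottom.

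The biology of these changes was described through probes to which the study's supplementary tables give a description. These cover 384 of the 529 rises and 59 of the 114 falls, and the remaining 145 and 55 stay unnamed. The tables were drawn up from these same arrays for 362 probes that were higher and 59 that were lower in Ldn/KU-2025, so that a member of a group from this source had to differ and its count is no independent evidence of direction. A further 1059 described probes had been picked as higher on the crt/KU-2025 arrays against the same WT arrays. That table is held here only in part, and the one of probes picked as lower there was not used, so the high crt/KU-2025 signals of these probes were fixed by their choice, and the WT arrays are shared between both comparisons. Of those 1059 probes, 22 rose and 0 fell in Ldn/KU-2025 in the limma fit, whereas 1.40% and 0.301% of all probes did. At an unadjusted limma p under 0.05, 101 of them were lower. Their median log2 ratio was 0.32, against −0.02 over all probes. With WT arrays in common, these counts are no independent evidence of direction either. Beside each count below stands how many of its calls came from these arrays.

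Photosynthesis and photorespiration formed the largest described set of genes, with 62 probes. The 60 from these arrays rose in Ldn/KU-2025, and the 2 from the crt/KU-2025 arrays did not pass. All 15 probes for light-harvesting chlorophyll a/b-binding proteins rose (median log2 ratio 2.23, range 1.67 to 4.73, or a median of 1.87 with the 4 probes that were dim in WT at their bound). Their median signal was 986 in the dwarf and 161.8 in WT. The next largest rises after rwhcs20f08_m_664 were rwhsh14j20, with 156 and 160.4 in Ldn/KU-2025, against 10.2 and 13.7 in WT, and whsh_allContig1271_2, with 667 and 697 in Ldn/KU-2025, against 69.2 and 66.9 in WT (log2 ratio 3.32). The first of these did not clear background on either WT array, and its rise was at least 5.72-fold. The smallest rise of the group was whsh_allContig1096, an LHC 1B protein, with 941 and 1030.5 in Ldn/KU-2025, against 319 and 302 in WT (log2 ratio 1.67).

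All 18 probes for subunits of photosystems I and II, the protein complexes that carry out the light reactions, rose within a narrow range, from 1.61 to 2.14 on the log2 scale (median 1.90). A photosystem I reaction centre subunit at whsh_allContig1169 had 5651 and 6015 in Ldn/KU-2025, against 1332 and 1307 in WT, and the 10 kDa polypeptide of photosystem II at wheat0130Contig15778 had 2127 and 2176 in Ldn/KU-2025, against 503 and 479 in WT. All 18 were well above background on all 4 arrays, and in all 18, chosen as higher on these arrays, both dwarf arrays were above both WT arrays, against 35.0% of all probes. The 3 probes between the photosystems in the electron transport chain rose too: plastocyanin, the copper protein that carries electrons (whsh_allContig1202), had 5839.8 and 6471 in Ldn/KU-2025, against 1318 and 1233 in WT, and the cytochrome b6-f iron-sulfur subunit, at wheat0130Contig5171 and wheat0130Contig124, had log2 ratios of 1.84 and 1.81.

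Carbon fixation genes, each chosen as higher on these arrays, rose as well. The 6 probes for the Rubisco small subunit and Rubisco activase, the enzyme that fixes CO2 and its chaperone, rose with a median log2 ratio of 2.46. Activase (wheat0130Contig57) had 759 and 795 in Ldn/KU-2025, against 113 and 121 in WT, and the small subunit (MUG005A09R990206) had 5139 and 5030.1 in Ldn/KU-2025, against 884 and 870.4 in WT. The 7 probes for other Calvin cycle proteins rose by a median of 1.88, CP12 by most, then 2 fructose-bisphosphate aldolase probes, wheat0130Contig4178 with 301 and 295 in Ldn/KU-2025, against 37.3 and 31.1 in WT and whsh_allContig1181 with 114 and 117 in Ldn/KU-2025, against 19.2 and 17.6 in WT. Neither was well above background in WT. The second was at least 4.18-fold higher, whereas the WT signals of the first exceeded the floor, and its fitted ratio (log2 3.13) is no bound. Photorespiration, which recycles the product of the oxygenase reaction of Rubisco, had 13 probes. All 11 that came from these arrays rose (median 2.46, or 1.94 with 5 probes at their bound), with serine-glyoxylate aminotransferase (whsh_allContig1069) at 394 and 397 in Ldn/KU-2025, against 34.7 and 29.3 in WT, and alanine-glyoxylate aminotransferase 2 (wheat0130Contig7554) at 653 and 605 in Ldn/KU-2025, against 84.2 and 93.9 in WT. The serine-glyoxylate aminotransferase probe was not well above background on either WT array. The 2 that came from the crt/KU-2025 arrays did not pass, and a second alanine-glyoxylate aminotransferase 2 probe, wheat0130Contig6210, had 7542 and 8275 in Ldn/KU-2025, against 7729 and 7420.0 in WT (log2 ratio 0.061, limma adjusted p = 0.534).

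These probes also mark green tissue, and their level varied between crowns of the other dwarf line. The summed signal of the 62 probes was 176600 and 186000 on the Ldn/KU-2025 arrays, 253400 and 607900 with crt/KU-2025, and 59920 and 56200 on the WT arrays. All 62 were well above background on both Ldn/KU-2025 arrays, against 51 and 50 of 62 on the WT arrays. Relative to the WT mean, the median log2 signal was 2.01 and 2.12 for the Ldn/KU-2025 arrays, but −0.01 and 3.80 for those of crt/KU-2025. Between the 2 crt/KU-2025 replicates, 59 of 62 probes were higher in replicate 2, 57 of them by at least 3-fold (median log2 difference 3.87), whereas the median absolute difference of these replicates over all probes was 0.196. The replicates of 1 line could thus differ in these transcripts by more than Ldn/KU-2025 and WT did. The part of green tissue content in the difference between Ldn/KU-2025 and WT was not tested. Outside these lists, 469 probes rose and 114 fell.

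**Figure D3:**
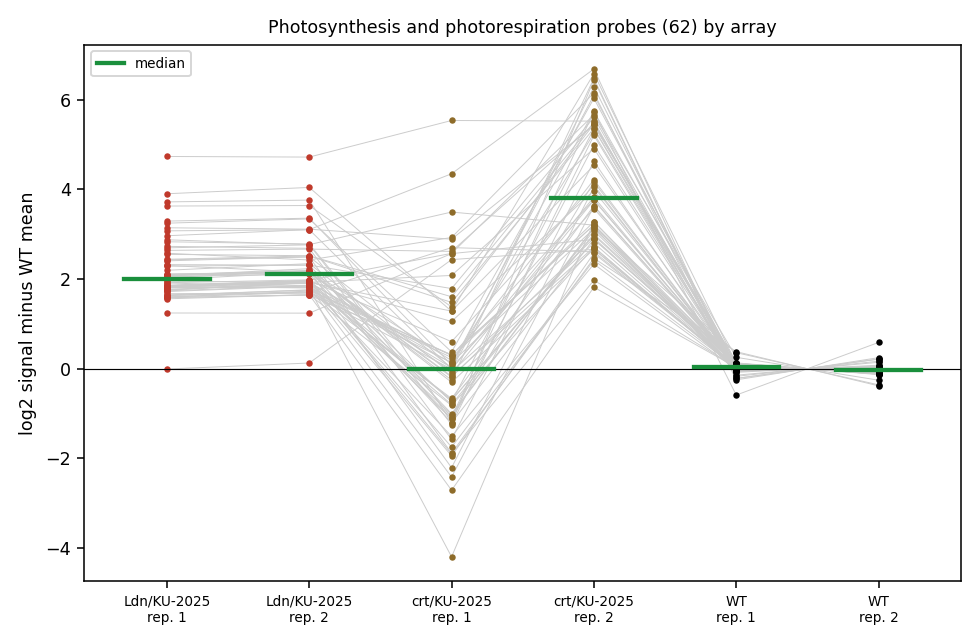
The y axis is the log2 signal minus the WT mean of each of the 62 photosynthesis and photorespiration probes, joined by grey lines across the 6 arrays, with green bars at the medians (2.01 and 2.12 for the 2 Ldn/KU-2025 arrays, then −0.01 and 3.80 for crt/KU-2025). The 2 Ldn/KU-2025 arrays were alike, whereas the crt/KU-2025 arrays were far apart.

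Genes that build the cell wall formed the next group. All 9 probes for cellulose and mixed-linked glucan synthases, which make the main glucan polymers of grass cell walls, rose. All 9 had been chosen as higher on these arrays, so this count was fixed in advance. Their median log2 ratio was 2.52, with median signals of 3046 in the dwarf and 445 in WT. Cellulose synthase A catalytic subunit 9 (wheat0130Contig1302) had 1162 and 1234 in Ldn/KU-2025, against 179.6 and 169.6 in WT (log2 ratio 2.78 ± 0.06 SE, limma adjusted p = 0.00663). A cellulose synthase family probe, whh20i02, had 2956 and 3136 in Ldn/KU-2025, against 454 and 436 in WT. Mixed-linked glucan synthase 2 was probed by 2 probes named for the same clone: whoh21l03, with 209 and 212 in Ldn/KU-2025, against 19.9 and 26.6 in WT, was at least 7.61-fold higher, and rwhoh21l03, with 8185 and 7694 in Ldn/KU-2025, against 2643 and 2507 in WT, had the smallest log2 ratio of the group (1.62). Median levels of the 9 probes were also above WT on the crt/KU-2025 arrays, by 2.67 and 3.03 on the log2 scale.

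Of 6 probes for trichome birefringence-like (TBL) and DUF231 proteins, a family whose characterised members add acetyl groups to wall polysaccharides in Arabidopsis, the 5 from these arrays rose (median 2.004, or 1.83 with 1 probe at its bound). Trichome birefringence-like 28 (whh2i03) had 491 and 465 in Ldn/KU-2025, against 113 and 126 in WT. A DUF231 probe named for the same clone, rwhh2i03, had 2443 and 2558 in Ldn/KU-2025, against 558 and 488 in WT, and the 2 log2 ratios were 2.004 and 2.26. An ALTERED XYLOGLUCAN 4-like protein (whkv5e10_417) was at least 2.57-fold higher. The ESKIMO 1-like probe rwhvs13k19_512, from the crt/KU-2025 arrays, stayed under 3-fold, with 568 and 583 in Ldn/KU-2025, against 273 and 304 in WT (limma adjusted p = 0.012).

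Lignin and phenylpropanoid enzymes divided by their source. The 7 probes from these arrays rose (median 1.82, or 1.71 with 1 probe at its bound), with caffeic acid O-methyltransferase (wheat0130Contig7441), which methylates lignin precursors, at 8341 and 7991 in Ldn/KU-2025, against 2045 and 1775 in WT, and laccase-4 (wheat0130Contig12557), which polymerises them, at 1350.1 and 1360.5 in Ldn/KU-2025, against 379 and 345 in WT. The largest ratio was that of a cinnamoyl-CoA reductase 1-like probe, MUGEST2003_23lib_Contig17809_945, at 34.4 and 32.3 in Ldn/KU-2025, against 6.15 and 6.29 in WT, which in WT was not well above background and for which only a bound of at least 1.21-fold holds. The 9 probes from the crt/KU-2025 arrays, among them 3 for phenylalanine ammonia-lyase, the entry enzyme of the pathway, did not pass 3-fold (median 0.56), although all 9 were higher. A caffeic acid 3-O-methyltransferase probe, wheat0130Contig754, was the least changed, with 822 and 835 in Ldn/KU-2025, against 779 and 770.4 in WT (limma adjusted p = 0.147). The laccase-4 probe, by contrast with the other named ones, was below both WT arrays in crt/KU-2025, at 239 and 136.

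Wall hydrolases showed the same division. Of 12 probes for beta-glucanases and related enzymes, the 4 from these arrays rose and 1 of the 8 others did. That one, a glucan endo-1,3-beta-D-glucosidase (MUGEST2003_23lib_Contig16264_863) of a class that also acts against fungal walls, had 100.3 and 82.6 in Ldn/KU-2025, against 7.52 and 7.69 in WT, a rise of at least 3.29-fold. The crt/KU-2025 signals of this probe were 16915 and 17814. A lichenase-2 (wheat0130Contig11274), which cuts mixed-linked glucan, had 108 and 113 in Ldn/KU-2025, against 21.2 and 26.5 in WT, at least 4.002-fold higher, and an endo-1,3 1,4-beta-D-glucanase (MUGEST2003_23lib_Contig19755_765) had 343 and 348 in Ldn/KU-2025, against 90.3 and 76.98 in WT. A second glucan endo-1,3-beta-D-glucosidase probe, rwhf5f02, was not well above background in either line, with 14.01 and 13.9 in Ldn/KU-2025, against 16.7 and 11.6 in WT.

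Class III peroxidases, secreted enzymes that form or use hydrogen peroxide at the wall, numbered 14 probes. The 10 from these arrays all rose (median 2.21, or 1.75 with 3 probes at their bound), and 1 of the 4 others did (median 1.43). A root peroxidase, wheat0130Contig8804, had 563 and 627 in Ldn/KU-2025, against 37.8 and 19.9 in WT, with only 1 of the 2 WT arrays above background (log2 ratio 4.44 ± 0.38 SE, limma adjusted p = 0.0142). A second root peroxidase (wheat0130Contig4339) had 119 and 118 in Ldn/KU-2025, against 17.2 and 6.21 in WT, and peroxidase 72-like (wheat0130Contig6294) had 69.03 and 72.4 in Ldn/KU-2025, against 6.76 and 6.99 in WT. Neither was well above background in WT, and they were at least 4.29-fold and 2.56-fold higher in the dwarf. The WT replicates of wheat0130Contig4339 differed by more than those of the other probes, and its limma adjusted p was 0.0367. The least changed probe, rwhr5g04 for peroxidase 47, was not well above background in either line, with 8.42 and 8.55 in Ldn/KU-2025, against 6.18 and 6.55 in WT.

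Glutathione transferases, which conjugate glutathione to toxic or oxidised compounds, had 4 rises among 11 probes, all 4 from these arrays. The 7 others stayed under 3-fold, 5 of them higher and 1 lower at a limma adjusted p under 0.05. Of all probes, 18.0% were higher and 15.9% lower at that limit. The largest, MUGEST2003_23lib_Contig4023_642, had 119.6 and 139 in Ldn/KU-2025, against 5.56 and 8.29 in WT, a rise of at least 4.67-fold. An IN2-1 probe (MUGEST2003_23lib_Contig19376_588) had 168 and 182 in Ldn/KU-2025, against 31.8 and 27.01 in WT, above background on 1 of the 2 WT arrays, and GSTU6 (MUGEST2003_23lib_Contig5075_747) had 293 and 327 in Ldn/KU-2025, against 92.7 and 94.1 in WT. The 1 lower probe, for glutathione S-transferase T3 (MUGEST2003_23lib_Contig9238_107), was not well above background on any of the 4 arrays. Germins, wall proteins some of which make hydrogen peroxide, rose in the 3 probes from these arrays and not in the 1 other. Both germin 5-1 probes were bright, wheat0130Contig12252 with 3333 and 3531 in Ldn/KU-2025, against 528 and 459.7 in WT and wheat0130Contig6784 with 3332 and 3518 in Ldn/KU-2025, against 791 and 757 in WT. A germin 8-5 probe (MUGEST2003_23lib_Contig3789_112) had 181 and 177 in Ldn/KU-2025, against 16.3 and 29.7 in WT, a rise of at least 6.25-fold, while another (wheat0130Contig11551) had 168 and 144 in Ldn/KU-2025, against 49.3 and 57.01 in WT and missed 3-fold (log2 ratio 1.56). On the crt/KU-2025 arrays germin 5-1 was at 678 and 491 at wheat0130Contig12252, and germin 8-5 at 15637 and 13135 at MUGEST2003_23lib_Contig3789_112.

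Inhibitors and proteases from these arrays mostly rose. Among 11 probes for inhibitors of proteases, amylases and xylanases, 8 rose and 1 fell, and all 9 came from these arrays. Subtilisin-chymotrypsin inhibitor 2A (MUGEST2003_23lib_Contig9443_306) had 124 and 124 in Ldn/KU-2025, against 7.67 and 8.07 in WT, at least 4.49-fold higher, and an alpha-amylase/trypsin inhibitor (MUGEST2003_23lib_Contig3803_446) had 278 and 307 in Ldn/KU-2025, against 54.5 and 44.2 in WT. Inhibitor CI-1B at whsh_allContig137 had 1052 and 1084 in Ldn/KU-2025, against 262 and 267 in WT (log2 ratio 2.01 ± 0.041 SE, limma adjusted p = 0.00661). The Bowman-Birk inhibitor MUGEST2003_23lib_Contig2767_343 was less changed, with 2863 and 2899.7 in Ldn/KU-2025, against 1959 and 1806 in WT. Levels in crt/KU-2025 were of another order, 27114 and 48974 at MUGEST2003_23lib_Contig3803_446 and 35185 and 52752 at whsh_allContig137. The 1 fall was at a second Bowman-Birk inhibitor probe, wheat0130Contig10174, with 282 and 326 in Ldn/KU-2025, against 1024 and 1061 in WT (log2 ratio −1.78 ± 0.095 SE, limma adjusted p = 0.00956). It was chosen for naming after its values were seen.

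Cysteine and subtilisin-like proteases rose in all 7 probes from these arrays (median 1.99, or 1.42 with 4 probes at their bound) and in 0 of the 4 others (median 0.14). Those that rose were mostly dim: a subtilisin-like protease (rwhr16c10) had 57.4 and 60.7 in Ldn/KU-2025, against 5.47 and 5.59 in WT, SAG12, a cysteine protease used as a marker of leaf senescence (wheat0130Contig15520), had 51.7 and 50.4 in Ldn/KU-2025, against 9.56 and 7.46 in WT, and a cathepsin L (rwhdl7k24) had 33.3 and 34.7 in Ldn/KU-2025, against 6.23 and 6.55 in WT. None of these 3 was above background in WT, and the bounds were at least 2.13-fold, 1.85-fold and 1.23-fold. A probe named for the same clone as rwhr16c10, whr16c10, had a log2 ratio of 0.92 and was not called. In crt/KU-2025 SAG12 reached 1949 and 1572. Small heat-shock proteins, chaperones that hold unfolding proteins, rose in 4 of 4 probes, all from these arrays (median 2.18, or 2.03 with 2 probes at their bound). The brightest, wheat0130Contig3609, had 1115 and 1131 in Ldn/KU-2025, against 244 and 278 in WT, wheat0130Contig12683 had 929 and 869.8 in Ldn/KU-2025, against 191 and 185 in WT, and wheat0130Contig9393, not well above background in WT, had 88.9 and 96.1 in Ldn/KU-2025, against 7.60 and 7.57 in WT, at least 3.34-fold higher.

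Transcripts of carbon use and transport rose in smaller numbers. Of 11 probes for sucrose synthase, alcohol dehydrogenase and hypoxia-induced proteins, the 5 from these arrays rose. The 6 others stayed under 3-fold (median 0.78). Of the 6, 5 were higher at a limma adjusted p under 0.05, as were 18.0% of all probes. Sucrose synthase 1 (wheat0130Contig7019), which splits sucrose in sink tissue, had 1601 and 1675 in Ldn/KU-2025, against 440.2 and 435 in WT (log2 ratio 1.90 ± 0.045 SE, limma adjusted p = 0.00683). A hypoxia-induced protein (wheat0130Contig8242) had 274 and 257 in Ldn/KU-2025, against 68 and 73.8 in WT, and a second (whoh4n05) was at least 2.66-fold higher. Alcohol dehydrogenase at whvs12k17_363 had 457 and 436 in Ldn/KU-2025, against 403 and 454 in WT. Among 5 aquaporins, water channels, the 2 from these arrays rose and the 3 others did not. PIP1-5 (wheat0130Contig5918) rose, with 4548 and 5045 in Ldn/KU-2025, against 1300.1 and 1271 in WT, and so did TIP1-3 (rwhf11m23), with 4053 and 3809 in Ldn/KU-2025, against 1289 and 1295 in WT. NIP1-3 (whsh_allContig558) did not pass, with 709 and 670.2 in Ldn/KU-2025, against 518 and 579.7 in WT. Of 10 nitrate and peptide transporter probes the 3 from these arrays rose, with 604 and 629 in Ldn/KU-2025, against 156 and 144 in WT at rwhr13o09, 299 and 301 in Ldn/KU-2025, against 76.01 and 77.6 in WT at whf13o09 and 1019.6 and 1079 in Ldn/KU-2025, against 352 and 330.5 in WT at wheat0130Contig1897. The other 7, from the crt/KU-2025 arrays, lay between 0.16 and 0.96 on the log2 scale.

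Few hormone genes were described. Cytokinin O-glucosyltransferases, which store cytokinins in inactive form, rose in the 3 probes from these arrays and not in the 1 other. O-glucosyltransferase 1 (wheat0130Contig2583) had 168 and 155 in Ldn/KU-2025, against 13.8 and 7.74 in WT, at least 5.84-fold higher, O-glucosyltransferase 2 (MUGEST2003_23lib_Contig5402_324) had 2169 and 2199 in Ldn/KU-2025, against 653 and 657 in WT, and cis-zeatin O-glucosyltransferase (MUGEST2003_23lib_Contig19372_919) had 1956 and 2016 in Ldn/KU-2025, against 664 and 625 in WT. O-glucosyltransferase 3 (rwhr25n11) had 626 and 624 in Ldn/KU-2025, against 331 and 304 in WT and stayed just under 2-fold. For auxin, 2 of 6 probes rose and 1 fell, all 3 from these arrays. The IAA-amino acid hydrolase ILR1 8 (MUGEST2003_23lib_Contig8072_765), which frees auxin from its conjugates, had 912 and 834 in Ldn/KU-2025, against 260.4 and 227 in WT, and an indole-3-acetic acid-amido synthetase (whr11m05), which makes such conjugates, had 139 and 129.5 in Ldn/KU-2025, against 44.5 and 39.7 in WT. A probe named for the same clone, rwhr11m05, had a log2 ratio of 1.19 and was not called. Auxin response factor 13 (wheat0130Contig914), a transcription factor, had 5.61 and 13.8 in Ldn/KU-2025, against 69.9 and 69.9 in WT, at least 2.90-fold lower (limma adjusted p = 0.0389). Its 2 dwarf values were far apart and neither was well above background. Auxin response factor 17 (MUGEST2003_23lib_Contig1830_305) had 323 and 300.4 in Ldn/KU-2025, against 287 and 333 in WT.

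**Figure D4:**
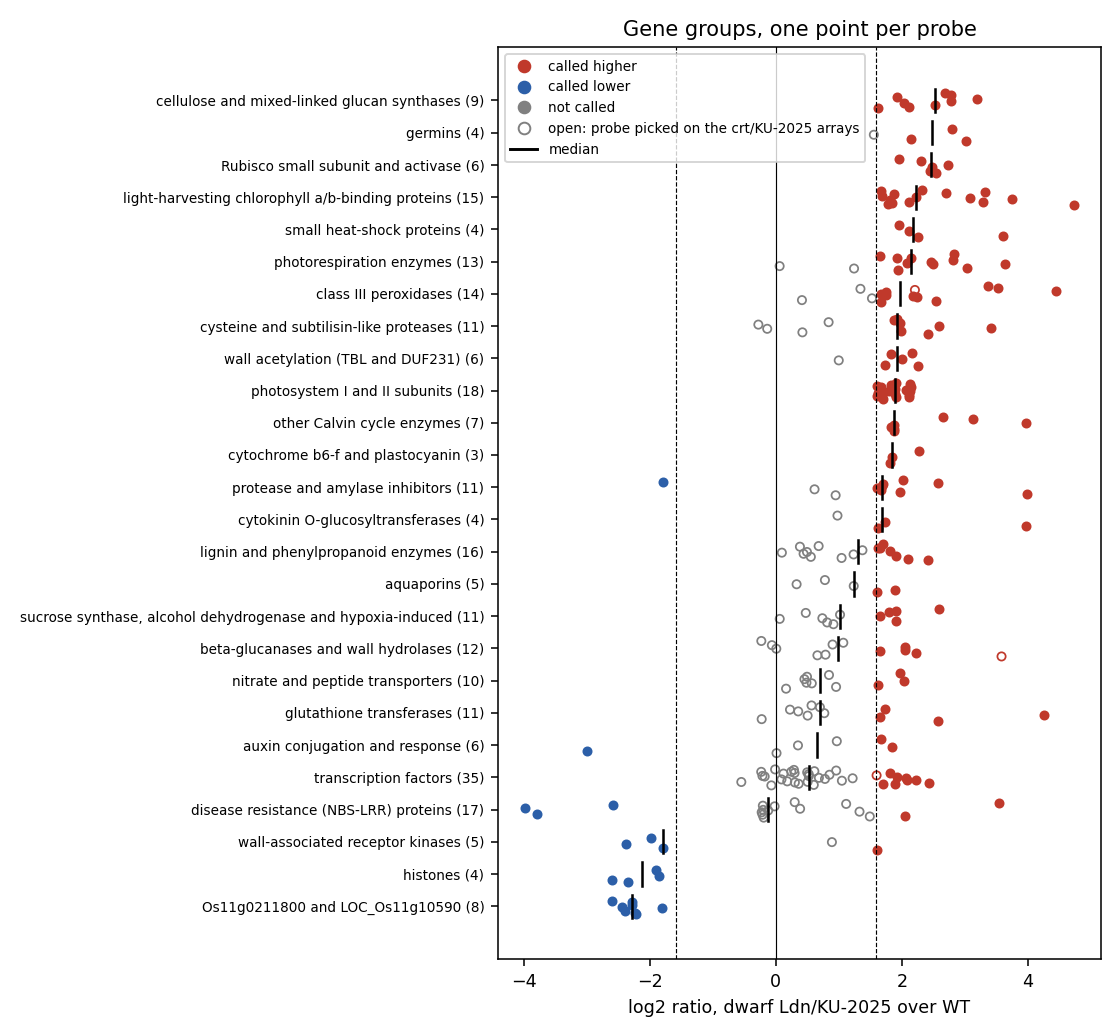
Log2 ratio of dwarf Ldn/KU-2025 over WT on the x axis for every probe of 26 gene groups, ordered by the median (black bar), with red and blue for called rises and falls and open points for probes picked on the crt/KU-2025 arrays. Histones, the Os11g0211800 and LOC_Os11g10590 probes and wall-associated receptor kinases had the lowest medians, −2.12, −2.29 and −1.79.

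Among the lists, 3 held mostly called falls, namely histones, the Os11g0211800 and LOC_Os11g10590 probes and wall-associated receptor kinases. Histones, the proteins that package newly replicated DNA, fell in all 4 probes, each from these arrays (median log2 ratio −2.12), and all 4 were bright enough to be measured on all 4 arrays. Histone H4 at wheat0130Contig5388 had 724 and 772 in Ldn/KU-2025, against 4507 and 4559 in WT (log2 ratio −2.60 ± 0.052 SE, limma adjusted p = 0.00649), and at wheat0130Contig14472 it had 113 and 111 in Ldn/KU-2025, against 571 and 565 in WT. The others were wheat0130Contig5126, with 4047 and 4457 in Ldn/KU-2025, against 15765 and 15888 in WT, and wheat0130Contig15397, with 1616 and 1743 in Ldn/KU-2025, against 6151 and 5913 in WT. The dwarf arrays lay below both WT arrays in all 4, chosen as lower on these arrays, against 37.7% of all probes, and no replicate pair differed by more than 0.139 on the log2 scale. On the crt/KU-2025 arrays the median log2 signal of the same probes relative to the WT mean was −3.36 in replicate 1 and −5.92 in replicate 2. At wheat0130Contig5388 those signals were 21.05 and 9.78 and not well above background on either array, and at wheat0130Contig15397 they were 537 and 104.

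All 8 probes described as the rice proteins Os11g0211800 or LOC_Os11g10590, whose function is not given, also fell (median −2.29), all of them from these arrays. They included MUG024E09R990620, with 45.01 and 37.1 in Ldn/KU-2025, against 259 and 236 in WT, MUG023C12R990620, with 84.97 and 79.6 in Ldn/KU-2025, against 471 and 426 in WT, and yNPF2149pBST3, with 45.1 and 55.9 in Ldn/KU-2025, against 272 and 254 in WT. The smallest fall was at MUG017B09R990130, with 86.4 and 76.3 in Ldn/KU-2025, against 296 and 271 in WT (log2 ratio −1.80). Probes with 1 description can share their sequence and are not independent. In crt/KU-2025 the same probes moved to the other side of WT and the replicates disagreed: MUG024E09R990620 was at 8279 and 534, and the median log2 signal over the WT mean was 4.74 in replicate 1 and 0.87 in replicate 2.

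Receptor genes moved both ways. Wall-associated receptor kinases, which bind pectin fragments at the cell surface, had 3 falls and 1 rise among 5 probes, all 4 calls from these arrays. WAK 3 (rwh19l04_2) had 2443 and 2561 in Ldn/KU-2025, against 10073 and 9642 in WT (log2 ratio −1.98 ± 0.052 SE, limma adjusted p = 0.00694), WAK 2 (rwh10k03) had 68.7 and 58.5 in Ldn/KU-2025, against 326 and 335 in WT, and WAK 5 (rwhkp15b19_765) had 222 and 169 in Ldn/KU-2025, against 662 and 677 in WT. The WAK 5 and WAK 2 clones each had a partner probe of the same name. For WAK 5, whkp15b19_707 was above background on all 4 arrays with a log2 ratio of −0.078, and for WAK 2, wh10k03, above background on 1 of the 2 WT arrays, had a log2 ratio of 0.88. Neither was called. The rise was at a second WAK 3 probe, MUGEST2003_23lib_Contig20041_612, with 276 and 299 in Ldn/KU-2025, against 95.97 and 93.9 in WT and a limma adjusted p of 0.00791, named after its values were seen. A WAK 1 probe (rwhr13f16) was not well above background in either line. Disease resistance proteins of the NBS-LRR class, intracellular immune receptors, had 2 rises and 3 falls among 17 probes, all 5 from these arrays. The 12 others stayed under 3-fold, and 6 of the 12 had a limma adjusted p under 0.05, against 33.8% of all probes. Of these 6, rwhoh27f12, MUGEST2003_23lib_Contig5812_564 and MUGEST2003_23lib_Contig9998_629 were higher (log2 ratios 1.49, 1.33 and 1.12). The rest, whcs6m09_684, MUGEST2003_23lib_Contig7212_967 and MUGEST2003_23lib_Contig14619_1744, were lower (−0.21, −0.21 and −0.19) and not well above background on any of the 4 arrays. RPM1 (rwhcs10h11_747) had 6.04 and 6.28 in Ldn/KU-2025, against 90.8 and 103 in WT, at least 4.02-fold lower, and Mla (ncbi_gi_24571200_1260), a barley mildew resistance gene family, had 6.22 and 6.35 in Ldn/KU-2025, against 89.5 and 83.98 in WT, at least 3.60-fold lower. RGA4 (whvs13c08_515) had 78.2 and 82.5 in Ldn/KU-2025, against 6.78 and 7.01 in WT, at least 2.90-fold higher. The partner of this clone, rwhvs13c08_763, was above background on all 4 arrays, at 666 and 659.5 in Ldn/KU-2025, against 799 and 758 in WT, and was not called (log2 ratio −0.23). For RPM1 the partner whcs10h11_739 had a log2 ratio of 3.13, opposite to that of rwhcs10h11_747, and was not called either. Signals of this class were low, and the median over the 17 probes was 13.1 in Ldn/KU-2025 and 25.5 in WT.

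**Figure D5:**
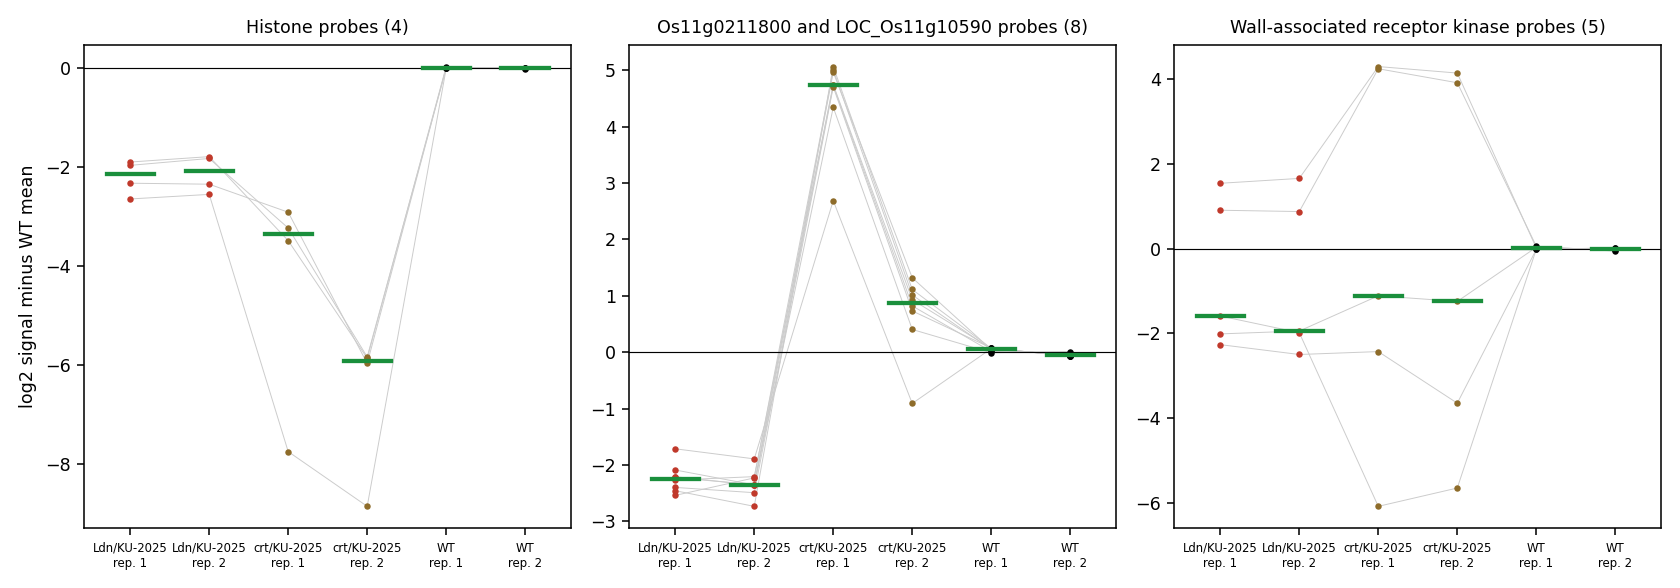
The y axis is the log2 signal minus the WT mean for histone, Os11g0211800 and LOC_Os11g10590, and wall-associated receptor kinase probes on the 6 arrays, with green bars at the medians. The crt/KU-2025 arrays were lower than Ldn/KU-2025 for histones and on the other side of WT for the Os11g0211800 and LOC_Os11g10590 probes, with a median of 4.74 in replicate 1 and 0.87 in replicate 2.

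Transcription factors rose in 9 of 35 described probes, 8 of 8 from these arrays and 1 of 27 others. MYB86 (wheat0130Contig1588) had 1409.6 and 1484 in Ldn/KU-2025, against 280.3 and 256 in WT (log2 ratio 2.43 ± 0.071 SE, limma adjusted p = 0.00712). A truncated CAULIFLOWER-like MADS-box factor (wheat0130Contig5167), of a family some of whose members specify floral meristems, had 614 and 577 in Ldn/KU-2025, against 132 and 122 in WT. It is not among the AP1/FUL-like probes that the study names. A CCCH zinc-finger factor (MUGEST2003_23lib_Contig8833_225) had 708 and 747 in Ldn/KU-2025, against 148 and 198 in WT. WRKY 70 (wheat0130Contig4886), a defence regulator in Arabidopsis, was the least changed, with 123 and 119.7 in Ldn/KU-2025, against 124 and 121 in WT (limma adjusted p = 0.861).

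The AP1/FUL-like, SPL and PR1 probes, which the study takes up for flowering time, tillering and defence, stayed under 3-fold in this comparison. Of the AP1/FUL-like MADS-box genes, which promote the switch to flowering, the Vrn-A1 probe (wheat0130Contig14238) had 179 and 159 in Ldn/KU-2025, against 158 and 169.8 in WT (log2 ratio 0.04 ± 0.087 SE, limma adjusted p = 0.745). TaAP1-2 (rwhfl48m16) had 594 and 581 in Ldn/KU-2025, against 678 and 790.2 in WT (log2 ratio −0.32, limma adjusted p = 0.0916), and TaAP1-3 (wheat0130Contig14728) had 4251 and 4054 in Ldn/KU-2025, against 3923 and 4112 in WT (limma adjusted p = 0.527). Another probe that the study describes as MADS-box factor WM7, as it does rwhfl48m16, was lower: rwhf1p23 (log2 ratio −0.55, limma adjusted p = 0.0176). A MADS-box probe described as BM5A, wheat0130Contig1725, was higher (log2 ratio 0.76, limma adjusted p = 0.00906). Neither reached 3-fold, and both were named after their values were seen. For the AP1/FUL-like genes, the study reports clearly lower array signals in Ldn/KU-2025 than in WT. It also reports lower transcripts of them by qRT-PCR on younger plants. On the arrays used here, Ldn/KU-2025 over WT was 1.03 at Vrn-A1, 0.80 at TaAP1-2 and 1.03 at TaAP1-3. None of these had a limma adjusted p under 0.05. The reported array decrease was thus not found here, and the reason was not tested. On the crt/KU-2025 arrays the Vrn-A1, TaAP1-2 and TaAP1-3 probes lay below both WT arrays, at 8.35 and 13.3, 5.89 and 10.8, and 1531 and 1751.

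The SPL genes, factors that restrain tillering and are cut by miR156, had log2 ratios of 0.10 at rwhoh17n20, 0.44 at MUGEST2003_23lib_Contig14620_504 and −0.11 at wheat0130Contig8035. Only the second passed the limma test without reaching 3-fold, at 49.8 and 52.6 in Ldn/KU-2025, against 38.2 and 37.4 in WT (adjusted p = 0.0204). PR1 (wheat0130Contig6231), the pathogenesis-related marker, had 1856 and 2131 in Ldn/KU-2025, against 919 and 918 in WT (log2 ratio 1.11 ± 0.088 SE, limma adjusted p = 0.013), above 2-fold and below 3-fold. On the crt/KU-2025 arrays it was at 41348 and 39717. By qRT-PCR on younger plants, the study reports lower transcripts of SPL genes in Ldn/KU-2025 than in WT at normal temperature. It reports no significant PR1 rise there. The SPL genes of that assay were not matched to these probes. Among the transcription factors that head the study's lists for crt/KU-2025 and for cold-grown Ldn/KU-2025, a MYB44-like probe, wheat0130Contig2276, was the only call, with 491 and 533 in Ldn/KU-2025, against 112 and 123 in WT (log2 ratio 2.13 ± 0.081 SE, limma adjusted p = 0.00792). Within the lists of lower factors the lowest ratio was at ATU17891, with 50.9 and 35.9 in Ldn/KU-2025, against 88.4 and 101 in WT. Within the lists of higher factors it was at wheat0130Contig13733, with 96.5 and 97.1 in Ldn/KU-2025, against 176 and 164 in WT. Neither reached 3-fold.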

How the data were processed

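Total RNA of crown tissue was labelled with Cy3 and hybridised to 1-colour Agilent wheat arrays, 1 sample per array. The deposited files hold the scanner output of each array, with spot intensity, local background and detection flags. The labels name Feature Extraction 9.5, whereas the file headers give 10.7.3.1. The processed intensity had been background-subtracted by the authors' scanner software. Following the study's methods, each array was scaled to a mean of 2500 after trimming 2% of the signals at each end, and log2 was taken. The authors' deposited table of normalized intensity matched these values within 1.0005 times. After removal of 1417 control spots, 37826 probes were tested without a filter on dim probes. The 2 groups were fitted alone with limma 3.58.1 in R 4.3.3 (lmFit and eBayes, Benjamini-Hochberg adjustment over all probes), and a call required at least 3-fold and an adjusted p under 0.05. A probe counted as measured where the deposited flag put it well above background. Samples were grouped by the line in their labels.

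Probe names were the only identifiers: 0 of them matched the wheat gene table used here, so no sequence or genome position is given, and gene names come from the study's own descriptions of selected probes. The study's fold and p columns were not used. The members and gene lists were chosen with earlier results of these data known. Named probes were the 5 largest rises and falls above background on all arrays, the 5 largest bounds among probes measured in 1 line, the 3 largest called members and the smallest member of each list, and the flowering, SPL and PR1 probes the study names with the largest member of each of its transcription factor lists. The procedure was tested on simulated data. Same-numbered replicates did not deviate in the same direction (r = −0.072 over all probes and −0.592 over 16534 probes with a mean signal over 500), so the numbers were not taken as pairs. Among the bright probes they deviated in opposite directions, so that Ldn/KU-2025 replicate 1 moved with WT replicate 2. The main fit holds no term for this. A fit with that crossed pairing as a block called 0 rises and 0 falls. Alternatives covered the scaling, background correction, filter, fold, block, test, arrays used and each array left out.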

Additional observations from a re-analysis of the deposited data

How the results depend on the processing

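The 529 rises and 114 falls kept their direction with 75th percentile scaling, quantile normalization, normexp correction, the authors' table, an intensity trend, all 6 arrays and each array left out, as did all of those that a filter on dim probes kept (491 and 95), but their number did not hold throughout. The rises numbered 119 with normexp correction and 1296 at 2-fold. The falls numbered 33 with normexp correction, 74 with all 6 arrays in the fit, 63 with the methods' t-test adjusted over all probes and 282 at 2-fold. With the replicate number as a block limma called 0 rises and 0 falls (smallest adjusted p = 0.0836, 13106 probes at an unadjusted p under 0.05), and with the crossed block, added after seeing the data, 0 and 0 (0.0522 and 17813). Leaving out an array gave 0 to 0 rises and 0 to 0 falls. Probes measured only in Ldn/KU-2025 numbered 203 when also required to be 3-fold brighter and 772 to 1053 with an array left out. Those measured only in WT numbered 44 and 155 to 340. The cause of these differences was not tested, except that an array left out leaves fewer arrays to meet the detection rule and fewer degrees of freedom. A block also leaves fewer degrees of freedom. With either block, all 529 rises and all 114 falls stayed past 3-fold.

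Of the 130 named probes, 0 of the 104 called and 12 of the 26 not called changed sign under an alternative, as did the medians of 2 of 33 lists. Of the 104, 58 lost their call with normexp correction, 33 with all 6 arrays, 6 each with 75th percentile scaling and quantile normalization, 3 with the t-test adjusted over all probes, and all 104 with either block or any array left out. With 75th percentile scaling 23 list medians moved by more than their replicate spread, and with an array left out 3 to 6 did. With 75th percentile scaling, quantile normalization and normexp correction the log2 ratio was −0.021, −0.017 and −0.012 at whvs12k17_363, −0.076, −0.11 and −0.14 at rwhf5f02, −0.072, −0.081 and −0.020 at MUGEST2003_23lib_Contig1830_305, −0.036, −0.0079 and −0.069 at wheat0130Contig14728, and −0.044, −0.029 and −0.045 at wheat0130Contig14238. With the first and the last of these it was −0.023 and −0.023 at wheat0130Contig6210. The log2 ratio changed sign in the normexp setting only at rwhr13f16 (−0.039), rwhr5g04 (−0.048) and MUGEST2003_23lib_Contig1662_1437 (−0.033). The methods' t-test on linear signals gave −0.016 at rwhf5f02 and 0.044 at rwhhg8e03_63. With an array left out it ranged from −0.024 to 0.15 at whvs12k17_363, −0.26 to 0.27 at rwhf5f02, −0.61 to 0.57 at rwhhg8e03_63, −0.097 to 0.12 at MUGEST2003_23lib_Contig1830_305, −0.0060 to 0.13 at wheat0130Contig6210, −0.35 to 0.074 at whr19c22, −0.032 to 0.010 at wheat0130Contig4886, and −0.045 to 0.12 at wheat0130Contig14238. The AP1/FUL-like median was −0.044 with 75th percentile scaling and −0.045 to 0.082 with an array left out, and the median of factors higher in the cold was −0.21 to 0.24.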

Other observations

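Probes whose names start with whsh_all held more rises than the array as a whole. Of 974 such probes, 69 rose (7.08%, against 1.40% of all probes) and 3 fell (0.308%), with a median log2 ratio of 0.20, against −0.02 over all probes. The next highest shares were 3.54% of 311 rwhh probes, 3.30% of 394 whr probes and 3.29% of 304 rwhr probes. Many of the photosynthesis probes carry whsh_all names, among them whsh_allContig1137 for CP12 and whsh_allContig1169 for photosystem I. What these name prefixes stand for is not given in the sources used here.

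Probes with a shared clone name, once as wh and once as rwh, formed 2448 pairs. In 57 pairs at least 1 probe was called, in 7 of them both were, in the same direction, and no pair was called in opposite directions. Of the 50 pairs with a single call, the other probe had the same sign in 35 and the opposite sign in 15. Over all pairs the log2 ratios correlated at r = 0.277, and over the 1089 pairs measured above background throughout at 0.545, as a description across probes of the same 4 arrays. Of those 1089 pairs, 13 held a call and 2 held a call at both probes. For the RPM1 clone, rwhcs10h11_747 had a log2 ratio of −3.97. Its partner whcs10h11_739 had 569 and 5.38 in Ldn/KU-2025, against 6.17 and 6.44 in WT, so its ratio of 3.13, which was not called, rests on 1 dwarf array.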
